A study of Mus musculus with 16 samples.

Results

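The SOCS family of cytokine feedback inhibitors was read here through Socs1, Socs2, Socs3 and Cish, and its members were all the probe sets that the platform annotation gives to 1 of these 4 genes. That rule found 5 of the 12422 probe sets tested, 1 each for Socs1, Socs2 and Cish and 2 for Socs3, and these are 4 of the 8251 genes named on the array. The Socs3 probe sets are 92232_at and 162206_f_at. The second carries the platform's suffix for sets whose probes may also match related sequences, and its value is open to that.

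Cytokine receptors of this kind have no kinase of their own and signal through bound JAK kinases, which phosphorylate STAT factors that then enter the nucleus and switch on genes. SOCS genes are among the genes switched on, and their proteins return to the receptor or the kinase and damp the signal, partly by handing bound proteins to a ubiquitin ligase through the SOCS box. Socs1 and Socs3 can also block the kinase directly. In T cells Socs3 is known for restraining interleukin 6 signalling through the receptor chain gp130, Socs1 for restraining interferon gamma and interleukins of the common gamma chain, and Cish as a gene induced through STAT5.

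The samples were 16 single-colour mouse arrays, 1 per sample, of 6 sorted lymphocyte populations in 3 pairs that set an innate-like population against its adaptive counterpart. NKT cells (CD3+CD4+NK1.1+, n = 3) and CD4T cells (CD3+CD4+NK1.1-, n = 3) were taken from the spleens of wild-type C57BL/6 mice. CD8aaT cells (TCRb+CD8a+CD8b-, n = 3) and CD8abT cells (TCRb+CD8a+CD8b+, n = 3) came from RTOC, a thymus culture for which the labels give no strain, with the agonist Smcy written as 10 mM for CD8aaT and 100 nM for CD8abT, so that cell type and agonist dose cannot be told apart. B1 cells from the peritoneum (IgM hi, IgD int, CD11b+, n = 2) were set beside B2 cells from the spleen (IgM int, IgD hi, CD11b-, n = 2), so that cell type and site cannot be told apart. In sorted cells measured in bulk, fewer cells expressing a gene and less RNA per cell cannot be told apart.

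Values are log2 of the deposited intensities, and differences are the innate-like minus the adaptive group on that scale with the standard error (SE) of limma's fit. Adjusted p is limma's, by Benjamini-Hochberg over 12422 probe sets, and a probe set was called where it lay under 0.05. The replicates are described as biological without saying from how many animals, so the p-values cover the spread seen among these arrays, whose number limits the precision. Array median intensities reached at most 54.1 in NKT and CD4T and 31.8 in CD8aaT and CD8abT but were 69.3 to 76.2 in B1 and B2, so levels were tested only within a pair. Replicate 1 of NKT, CD4T, B1 and B2 stood apart, with an 18S ribosomal control of 675 to 1326 against 33.4 to 62.6 on the other arrays of these groups. In the RTOC pair this control was 66.5, 273 and 249 on CD8aaT arrays and 129, 857 and 716 on CD8abT arrays. It was thus higher in CD8abT at each replicate number, and its part in the results was not tested. The summed intensity of 7 T cell markers was 3162 to 3430 in NKT, 2792 to 3368 in CD4T, 2431 to 4096 in CD8aaT and 4656 to 7768 in CD8abT, against 492 to 572 in B1 and B2. For 5 B cell markers it was 13392 to 15936 in B1 and B2 and 526 to 2674 in the T cell groups. NK1.1 itself has no probe set of its own symbol here and was not read.

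The promoters of 3 members are shown first, because STAT binding to such promoters is how these genes are known to be induced. They were taken from RefSeq on build GRCm38.p6, 5′ to 3′ on the gene's strand, from 170 bases before the start to 30 bases after it, and Socs2 has no entry in the table used. Capitals mark each match to TTCNNNGAA, a pattern that reads the same on both strands and that STAT factors bind. The Cish stretch is chr9:107296489-107296688 on the plus strand, the Socs3 stretch chr11:117969337-117969536 on the minus strand and the Socs1 stretch chr16:10785507-10785706 on the minus strand.
Cish: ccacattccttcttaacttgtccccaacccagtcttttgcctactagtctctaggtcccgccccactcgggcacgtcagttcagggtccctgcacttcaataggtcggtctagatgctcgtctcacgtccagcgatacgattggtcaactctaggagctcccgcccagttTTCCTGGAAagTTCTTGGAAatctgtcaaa
Socs3: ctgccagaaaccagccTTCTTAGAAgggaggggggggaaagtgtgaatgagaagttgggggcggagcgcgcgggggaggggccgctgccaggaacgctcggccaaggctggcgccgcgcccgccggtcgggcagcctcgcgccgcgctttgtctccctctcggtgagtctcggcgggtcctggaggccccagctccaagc
Socs1: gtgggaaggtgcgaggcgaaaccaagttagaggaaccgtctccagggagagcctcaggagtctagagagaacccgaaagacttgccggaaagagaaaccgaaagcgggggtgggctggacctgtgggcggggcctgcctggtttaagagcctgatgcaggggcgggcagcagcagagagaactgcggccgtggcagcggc
In windows of 300 bases (250 before and 50 after the start), Cish held 2 matches, TTCCTGGAA at bases 1 to 9 and TTCTTGGAA at bases 12 to 20 counted from the start. Socs3 held 1, TTCTTAGAA, at bases -154 to -146, and Socs1 held none. Among all 32851 promoters of that length 8.30% held at least 1 match and 0.457% held 2 or more. A match is a stretch of letters and not a measured binding site.

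Within the family the direction differed by gene in NKT cells, where Socs2 and Cish were higher than in CD4T cells, Socs3 was lower and Socs1 did not separate the groups. Of the 5 member probe sets 3 were called, 2 higher and 1 lower, where 1.63% of all probe sets were called in this pair, 1.09% higher and 0.539% lower. With the replicate number as a block 4 of the 5 were called, where 4.84% of all probe sets were. The groups did not overlap in 4 of the 5, with 2 higher and 2 lower, against 12.2% of all probe sets (7.19% higher and 5.02% lower).

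Socs2, which is best known for restraining growth hormone signalling and is also induced through STAT5, had log2 values of 10.00, 9.88 and 9.93 in NKT cells, against 6.66, 7.58 and 7.73 in CD4T cells. The NKT arrays lay close together and all far above the CD4T arrays, of which replicate 1 was the lowest. Socs2 rose by 2.61 ± 0.29 (SE), or 6.11-fold (adjusted p = 0.000103). Taken between arrays of the same number the difference was 3.34, 2.30 and 2.20 for numbers 1, 2 and 3, so it was present in each, and it was 2.25 (adjusted p = 0.00166) with number 1 of all groups left out. Beta-actin signal at the 3′ end over that at the 5′ end, which grows as RNA breaks, was 7.02, 3.59 and 3.71 on CD4T arrays. On NKT arrays this ratio was 5.34, 3.56 and 3.72. Socs2 stayed called with the ratio as a covariate.

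Cish encodes CIS, the founding member of the family, which damps signals through STAT5 and the T cell receptor. Its log2 values were 7.69, 7.86 and 7.87 in NKT cells and 7.39, 7.08 and 7.22 in CD4T cells, without overlap. Cish rose by 0.58 ± 0.13, or 1.49-fold (adjusted p = 0.0403), a much smaller step than that of Socs2. This call was narrow. It was lost without any 1 of 11 arrays (NKT replicates 1, 2 and 3, CD4T replicates 2 and 3, CD8aaT replicates 1 and 2, and both replicates of B1 and of B2), with a difference of 0.50 to 0.64 in those fits, and over all alternatives the difference stayed between 0.49 and 0.72 with an adjusted p of 0.0112 to 0.249.

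Socs3 moved the other way. On 162206_f_at the log2 values were 6.45, 6.82 and 6.81 in NKT cells, against 8.31, 8.62 and 8.65 in CD4T cells. Every NKT array lay below every CD4T array, and the difference was -1.86, -1.80 and -1.84 between arrays of the same number. Socs3 fell by 1.83 ± 0.28, to a level 3.57-fold lower (adjusted p = 0.00266), and stayed called in all 26 alternatives. The second probe set, 92232_at, had 6.35, 6.32 and 6.14 in NKT cells and 7.29, 6.78 and 6.80 in CD4T cells, again without overlap. Its difference of -0.69 ± 0.17 just missed the test (adjusted p = 0.0558) and passed it with the replicate number as a block (adjusted p = 0.00647). Both probe sets of the gene thus had lower values in NKT cells, with the smaller difference on 92232_at.

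Socs1 had log2 values of 6.24, 6.44 and 6.32 in NKT cells and 6.47, 6.04 and 6.13 in CD4T cells. The groups overlapped, and the difference was 0.12 ± 0.18 (adjusted p = 1), with a 95% interval of the fit from -0.28 to 0.52. In the same arrays 2 of 7 macrophage markers were called higher in NKT cells, Lyz2 (2.08 ± 0.35) and Csf1r (0.60 ± 0.13), the summed intensity of the 7 being 406 to 487 in NKT and 273 to 394 in CD4T. None of the 7 markers was at 0, and their part in the SOCS results was not tested. None of 5 granulocyte, 3 erythroid and 7 stromal markers was called in any of the 3 pairs.

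**Figure D1:**
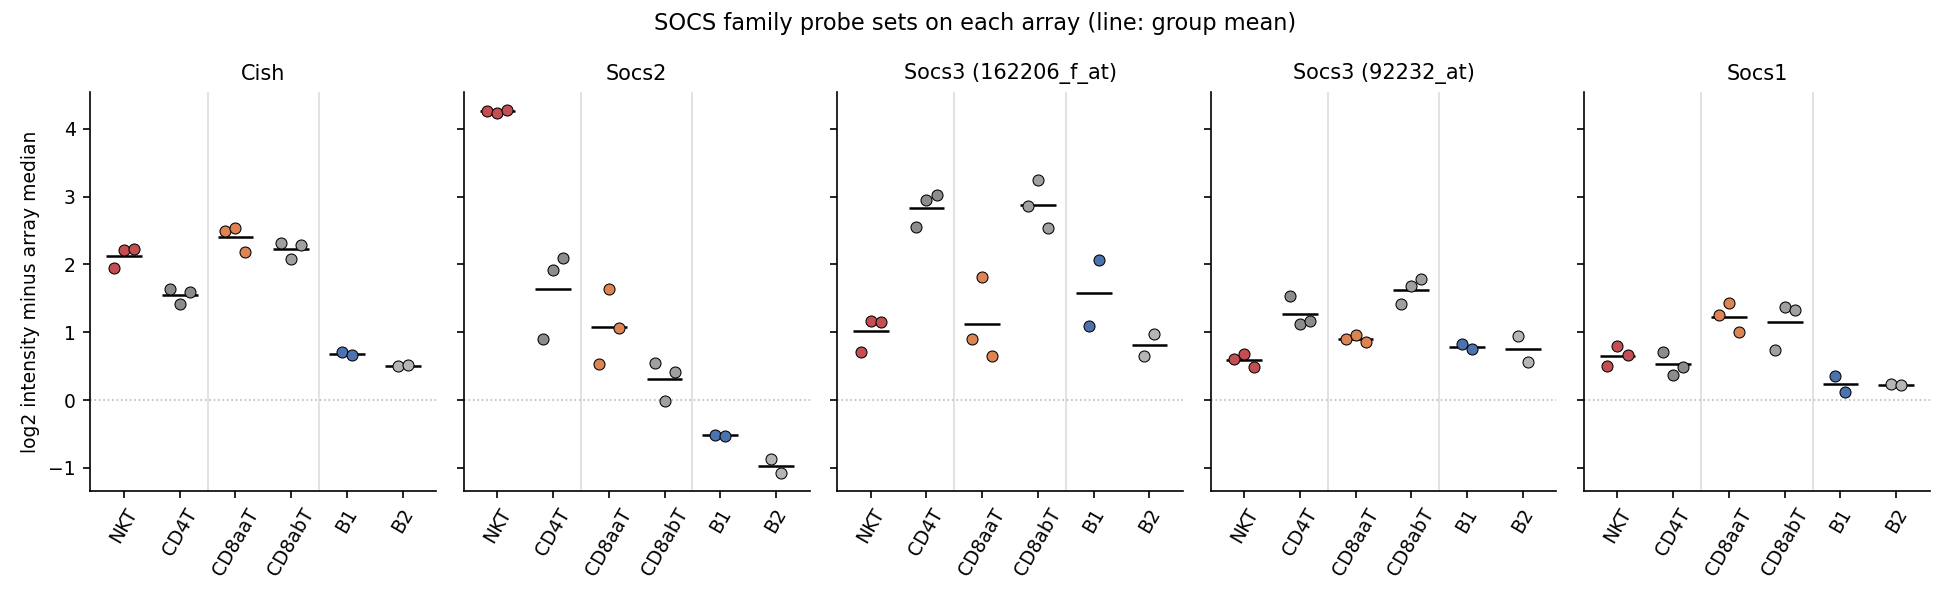
Each point is 1 array and each line a group mean, with log2 intensity minus the array median on the vertical axis and the 6 groups on the horizontal axis, 1 panel per probe set. Socs2 stands highest in NKT cells, and 162206_f_at of Socs3 lies near 1 in NKT and CD8aaT cells, against 2.84 in CD4T and 2.88 in CD8abT cells.

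In the RTOC pair Socs3 was lower in CD8aaT than in CD8abT cells, on both probe sets and by nearly the same amounts as between NKT and CD4T cells, while Cish and Socs1 did not separate the groups. On 162206_f_at the log2 values were 5.83, 6.75 and 5.64 in CD8aaT cells, against 7.80, 8.20 and 7.53 in CD8abT cells. CD8aaT replicate 2 was the highest of its group and still below every CD8abT array. Socs3 fell by 1.77 ± 0.28, to a level 3.41-fold lower (adjusted p = 0.0231), and between arrays of the same number the difference was -1.98, -1.45 and -1.89.

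The probe set 92232_at had 5.83, 5.89 and 5.84 in CD8aaT cells and 6.36, 6.64 and 6.78 in CD8abT cells. The values did not overlap, and the difference of -0.74 ± 0.17 did not pass (adjusted p = 0.126), though it did with the replicate block (adjusted p = 0.0128). Of the 5 member probe sets 1 was called, lower, where 0.185% of all probe sets were called and 0.0322% were called lower, and with the block 2 were called, where 3.2% were. No overlap between the groups was seen in 2 of the 5, both of Socs3 and lower, against 11.3% of all probe sets (5.51% lower). The 23 probe sets called in this pair became 10 to 57 with 1 array left out and 2 with the arrays of these groups alone.

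The call of Socs3 in CD8aaT cells was the less firm of its calls. It was lost without CD8aaT replicate 1 (adjusted p = 0.0755) or replicate 3 (0.12), or without CD8abT replicate 1 (0.0511) or replicate 2 (0.115), with differences of -1.55 to -1.79 in these fits. It was also lost with number 1 of all groups left out (-1.67, adjusted p = 0.0743), and over all alternatives the difference lay between -2.11 and -1.38 with an adjusted p of 0.000139 to 0.362. Beta-actin signal at the 3′ end over that at the 5′ end, which grows as RNA breaks, was 5.80, 5.76 and 5.15 on CD8aaT arrays and 6.57, 11.6 and 7.92 on CD8abT arrays, and with it as a covariate the difference was -1.82 (adjusted p = 0.11). The same ratio for Gapdh was 20.9, 17.6 and 7.37 on CD8aaT arrays and 24.0, 30.4 and 9.47 on CD8abT arrays. With the Gapdh ratio as a covariate 1 member probe set was called in this pair, as without it. Of 7 T cell markers 2 were called lower in CD8aaT cells, the gate genes Cd8b1 (-5.51 ± 0.34) and Cd8a (-0.80 ± 0.14). None of 7 macrophage markers was called in this pair.

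Socs2 had log2 values of 5.46, 6.57 and 6.06 in CD8aaT cells and 5.50, 4.94 and 5.40 in CD8abT cells. CD8aaT replicate 1 lay within the range of the CD8abT arrays and the other CD8aaT arrays above it. The difference was 0.75 ± 0.29 and did not pass (adjusted p = 0.694, 95% interval 0.14 to 1.37). It ran from -0.03 between the arrays of number 1 to 1.63 between those of number 2, and it was 1.15 and called (adjusted p = 0.0482) with number 1 of all groups left out. With the beta-actin ratio as a covariate it was 0.36.

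Cish was 7.43, 7.48 and 7.17 in CD8aaT cells and 7.26, 7.03 and 7.28 in CD8abT cells, with a difference of 0.17 ± 0.13 (95% interval -0.11 to 0.45). Socs1 was 6.18, 6.36 and 5.99 in CD8aaT cells and 5.68, 6.33 and 6.32 in CD8abT cells, with a difference of 0.07 ± 0.18 (95% interval -0.33 to 0.47). The groups overlapped for both genes.

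Between B1 and B2 cells no member probe set was called, where 1.14% of all probe sets were (0.789% higher), and none of the 5 had an unadjusted p under 0.05. The groups did not overlap in 3 of the 5, all higher in B1, against 32.3% of all probe sets with 2 arrays a group (12.2% higher and 20.1% lower). Socs3 on 162206_f_at was 7.33 and 8.18 in B1 cells and 6.90 and 7.18 in B2 cells, a difference of 0.72 ± 0.35 (adjusted p = 1, 95% interval -0.03 to 1.46). Its other probe set had 7.06 and 6.87 in B1 cells and 7.19 and 6.76 in B2 cells, with overlap and a difference of -0.01 ± 0.20. The probe sets of Socs3 therefore gave unlike values in this pair, and the higher B1 mean on 162206_f_at came mostly from replicate 2, without which the difference was 0.29.

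Socs2 was 5.73 and 5.58 in B1 cells and 5.38 and 5.13 in B2 cells (0.40 ± 0.35), and it was dimmer than the array median on all 4 arrays. Cish was 6.94 and 6.77 in B1 cells and 6.76 and 6.72 in B2 cells (0.12 ± 0.16). Socs1 was 6.59 and 6.23 in B1 cells and 6.48 and 6.42 in B2 cells (-0.04 ± 0.23). Of 7 macrophage markers Lyz2 was called higher in B1 cells (2.29 ± 0.43), and the summed intensity was 532 to 719 in B1 against 456 to 477 in B2.

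**Figure D2:**
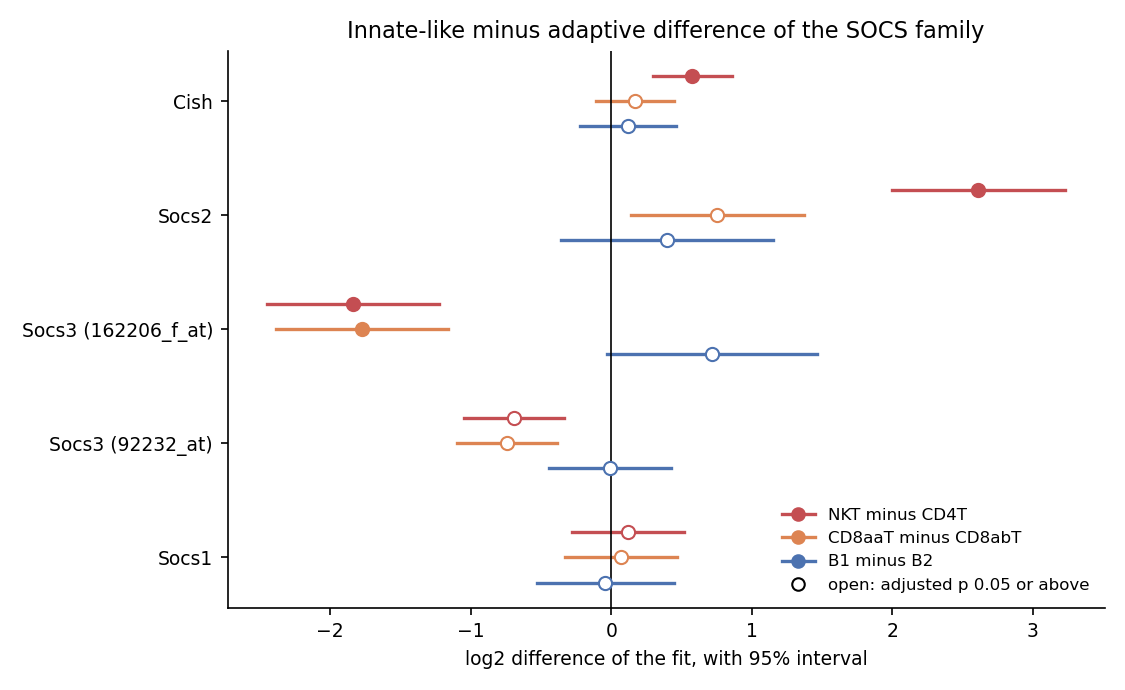
Points are the log2 differences of limma's fit and bars their 95% intervals, for each member probe set in NKT minus CD4T, CD8aaT minus CD8abT and B1 minus B2, with filled points where the adjusted p was under 0.05. Socs2 and 162206_f_at of Socs3 lie on opposite sides of 0 in NKT cells (2.61 and -1.83), and Socs3 lies at -1.77 in CD8aaT cells.

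Whether these differences themselves differed between pairs was tested in the same fit. The Socs2 difference was larger in NKT minus CD4T than in B1 minus B2 by 2.21 ± 0.45 (adjusted p = 0.0225, with 1.35% of probe sets called in this contrast and 0.773% called higher). Against CD8aaT minus CD8abT it was larger by 1.86 ± 0.40, which did not pass (adjusted p = 0.0592) and passed with the replicate block (adjusted p = 0.0286, where 1 member was called against none without it). Without the block 0.692% of probe sets were called in this contrast, 0.403% higher. The share called with the block was not counted for it, so the blocked call cannot be weighed against all probe sets. Socs3 on 162206_f_at differed from its B cell value by -2.55 ± 0.45 in the NKT pair (adjusted p = 0.00842) and by -2.49 ± 0.45 in the RTOC pair (adjusted p = 0.0195, with 0.733% of probe sets called). Between the NKT and the RTOC pair its difference was -0.06 ± 0.40 (95% interval -0.93 to 0.80), so a gap of less than that could not be seen. On 92232_at the contrast with the B cell pair was not called for NKT (-0.68 ± 0.26, adjusted p = 0.491) or for RTOC (-0.73 ± 0.26, adjusted p = 0.685). The Cish difference in NKT cells exceeded that in CD8aaT cells by 0.41 ± 0.18 (adjusted p = 0.941) and that in B1 cells by 0.46 ± 0.21 (adjusted p = 0.768), so a larger step in NKT cells was not established. The B cell contrasts rest on 2 arrays a group: without B2 replicate 1 or without B1 replicate 2 neither contrast of the NKT pair with it was called.

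Levels over all 6 groups can be set side by side only relative to each array's median, since the pairs may have been normalized apart, and they were not tested. For Socs2 the order of the mean log2 level over the array median was NKT (4.26 ± 0.02, SD), CD4T (1.64 ± 0.65), CD8aaT (1.08 ± 0.55), CD8abT (0.31 ± 0.29), B1 (-0.52 ± 0.02) and B2 (-0.97 ± 0.14). CD4T overlapped CD8aaT and CD8aaT overlapped CD8abT, and the other neighbours did not overlap. Socs2 in NKT cells thus stood apart from all 5 other populations.

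For Socs3 on 162206_f_at the order was CD8abT (2.88 ± 0.36), CD4T (2.84 ± 0.25), B1 (1.58 ± 0.69), CD8aaT (1.12 ± 0.62), NKT (1.01 ± 0.26) and B2 (0.81 ± 0.23). The adaptive T cell groups overlapped each other and lay above the remaining groups, which overlapped from neighbour to neighbour. On 92232_at CD8abT (1.63 ± 0.19) and CD4T (1.27 ± 0.23) were again the top groups, overlapping, and the rest followed from CD8aaT (0.90 ± 0.05) to NKT (0.59 ± 0.09).

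Cish was highest in the T cells, at 2.41 ± 0.20 in CD8aaT, 2.23 ± 0.13 in CD8abT and 2.13 ± 0.16 in NKT, groups that overlapped. It was 1.54 ± 0.12 in CD4T, 0.68 ± 0.03 in B1 and 0.51 ± 0.005 in B2, none of which overlapped its neighbour. Socs1 had 1.23 ± 0.21 in CD8aaT, 1.15 ± 0.36 in CD8abT, 0.66 ± 0.14 in NKT and 0.53 ± 0.17 in CD4T, and 0.23 ± 0.17 in B1 and 0.22 ± 0.01 in B2. Its neighbours overlapped except CD4T and B1.

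The rest of the pathway was read from lists of textbook genes, each gene on its brightest probe set. Of the other SOCS genes Socs5 was the one measured, and it was flat, with differences of 0.06 ± 0.13 in NKT, -0.14 ± 0.13 in CD8aaT and -0.07 ± 0.15 in B1 cells. The proteins that couple the SOCS box to its ubiquitin ligase had 4 measured genes, Elob, Eloc, Cul2 and Rnf7, and none was called in any pair. At the share of calls over all probe sets, 4 genes would seldom hold one, so this count says little about the group.

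Among the kinases and factors that SOCS proteins restrain, none of 4 JAK kinases and none of 5 measured STAT factors was called in any pair. Over all probe sets 1.63% were called in the NKT pair, 0.185% in the CD8aaT pair and 1.14% in the B1 pair. Lists this short would seldom hold a call at these shares, so the counts say little. In NKT cells Jak2 was 1.22 ± 0.30 (adjusted p = 0.0679, and 0.000167 with the number as a block), and Stat4, the factor of interleukin 12 signalling, was 1.06 ± 0.40 (adjusted p = 0.463, and 0.000893 with the block). Stat4 was 0.70 ± 0.40 in CD8aaT cells (adjusted p = 0.891, and 0.0273 with the block) and, with the opposite sign, -1.26 ± 0.49 in B1 cells (adjusted p = 0.68). Stat5a and Stat5b, through which Cish and Socs2 are known to be induced, were -0.19 ± 0.19 and -0.02 ± 0.10 in NKT cells.

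Of 28 measured receptors of the pathway 1 rose and 1 fell in NKT cells, where 1.09% of all probe sets were called higher and 0.539% lower. Their median difference was 0.04 against -0.03 for all probe sets. Il12rb1, a chain of the interleukin 12 receptor, rose by 1.37 ± 0.18, and Il6ra, the interleukin 6 receptor chain, fell by 2.54 ± 0.36. With the block, where 4.84% of all probe sets were called, Il10rb was called higher too (0.54 ± 0.19, adjusted p = 0.4, and 0.0169 with the block). Il6st, which encodes the gp130 chain that Socs3 binds, gave -1.37 ± 0.38 for NKT (adjusted p = 0.127, and 0.000207 with the block) and rose by 2.97 ± 0.46 in B1 cells (adjusted p = 0.00338), the single call among receptors there. Lower Socs3 in NKT cells stood beside lower Il6ra, with Il6st short of the test, and a link between these genes was not tested. No receptor was called in CD8aaT cells, where 0.185% of all probe sets were called, so this count says little. With the block 3 were called higher there, where 3.2% of all probe sets were called. These were Il7r (1.71 ± 0.41, adjusted p = 0.183, and 0.0111 with the block), Il10rb (0.54 ± 0.19, and 0.0312 with the block) and Ifngr1 (0.88 ± 0.22, and 0.0369 with the block). Il6st was -0.07 ± 0.38 in CD8aaT cells. Il6ra was -0.90 ± 0.36 there, the direction seen in NKT cells, and did not pass (adjusted p = 0.738, and 0.0923 with the block).

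Of 16 measured cytokines of the pathway 2 rose in NKT cells, Il4 (3.84 ± 0.26) and Ifng (2.62 ± 0.20), and none was called in the other pairs. Of 12 measured inhibitors of other kinds 1 rose in NKT cells, the adaptor Dok2 (1.01 ± 0.16, adjusted p = 0.00235), and none was called in CD8aaT or B1 cells. Over all probe sets 1.09% were called higher in the NKT pair, and 0.185% were called in the CD8aaT pair and 1.14% in the B1 pair. The lack of calls in those last pairs therefore says little. The median difference of these inhibitors in NKT cells was 0.07, near the -0.03 of all probe sets.

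Genes known to be induced through STAT5 and STAT3 were counted too. None of 11 measured STAT5 genes was called in NKT cells (median -0.06, 5 above 0), where Socs2 and Cish rose. At the 1.63% of all probe sets called in this pair, 11 genes would seldom hold a call, so this count says little. With the replicate block 3 were called higher, Xbp1, Ccnd2 and Ccnd3, where 4.84% of all probe sets were called. Of 11 STAT3 genes Il6ra was the one called in NKT cells, on the same probe set already counted among the receptors. None of the STAT3 genes was called in CD8aaT cells, where 0.185% of all probe sets were called. In B1 cells Myc of the STAT5 list rose (1.70 ± 0.27), and Bcl6 fell (-2.33 ± 0.35) in the STAT3 list.

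**Figure D3:**
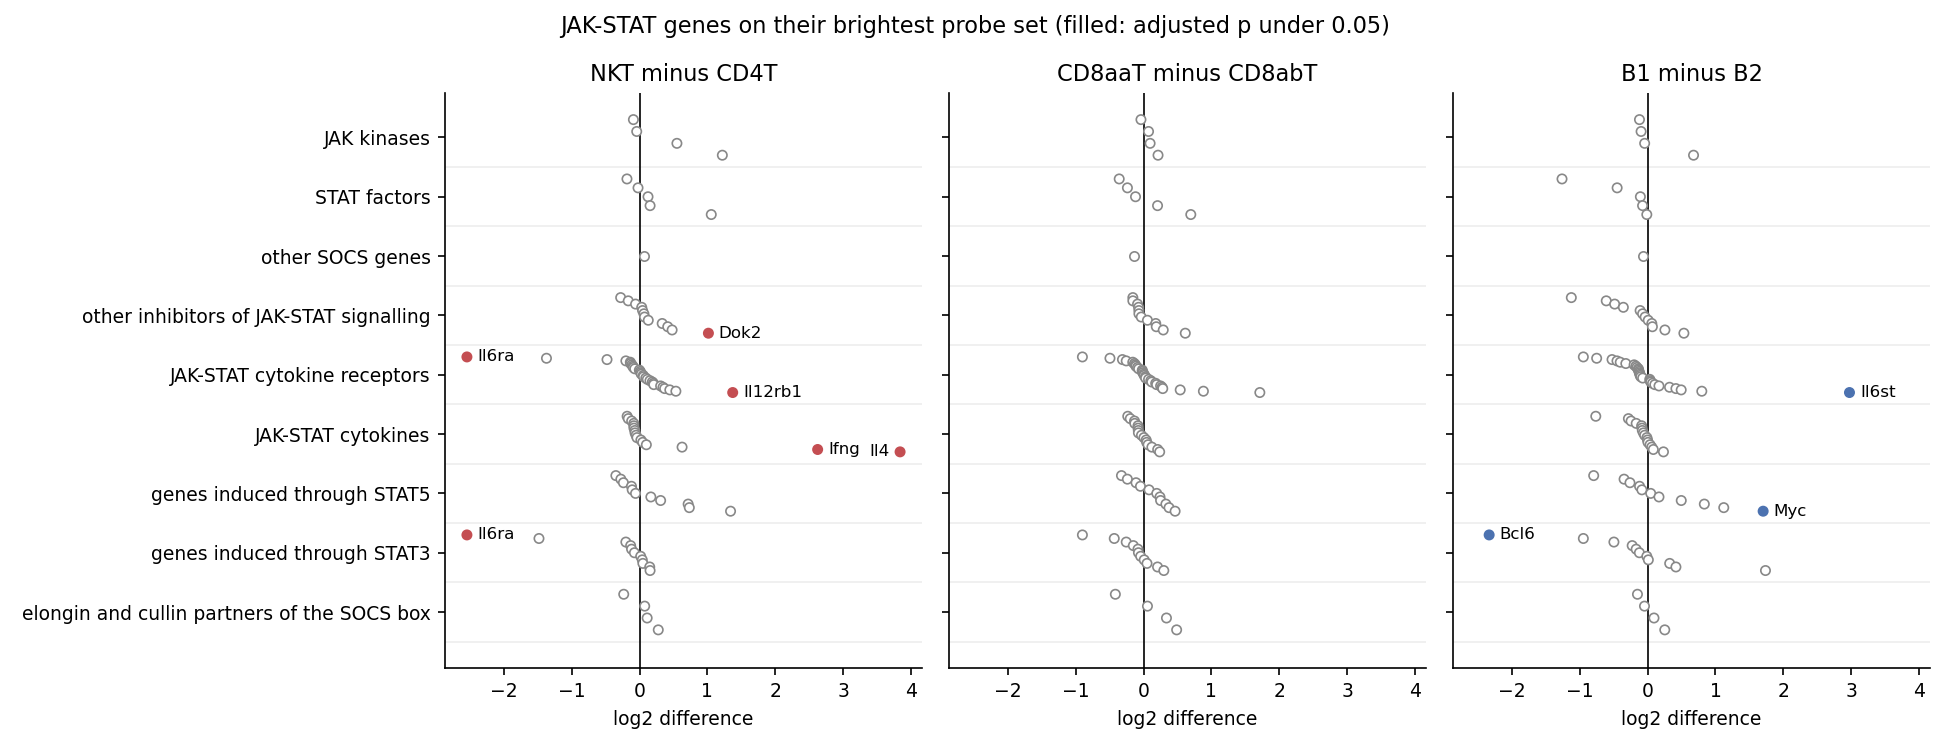
Each point is the log2 difference of 1 gene in the pair named above the panel, by list, filled and named where the adjusted p was under 0.05. Calls are few beside the SOCS genes, with Il4 at 3.84 and Il6ra at -2.54 the extremes in NKT cells and no call in CD8aaT cells.

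The genes whose pattern was most like each member were found from Pearson's r over the 16 arrays, after the mean of each pair's arrays was taken out, among 8250 other genes on their brightest probe sets. These arrays form 6 groups, so r can follow differences between groups as well as deviations of single arrays, and is given as a description. For Socs1 the groups of each pair differed little (0.12, 0.07 and -0.04), so its r mostly follows deviations among arrays of the same group. The closest to Socs2 were F2r, a thrombin receptor (0.95), Ccr2, a chemokine receptor (0.95), and Icam1, an adhesion molecule (0.93). Closest to Cish were the kinase gene Map3k8 (0.91), the interleukin 18 receptor chain Il18rap (0.91) and Dock5 (0.90). Socs3 on 162206_f_at had Tulp3 (0.88), Dntt, the terminal transferase of developing lymphocytes (0.85), and Klf13 (0.83). Socs1 had Gne (0.88), the glycolytic enzyme gene Pfkm (0.83) and Brk1 (0.83).

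**Figure D4:**
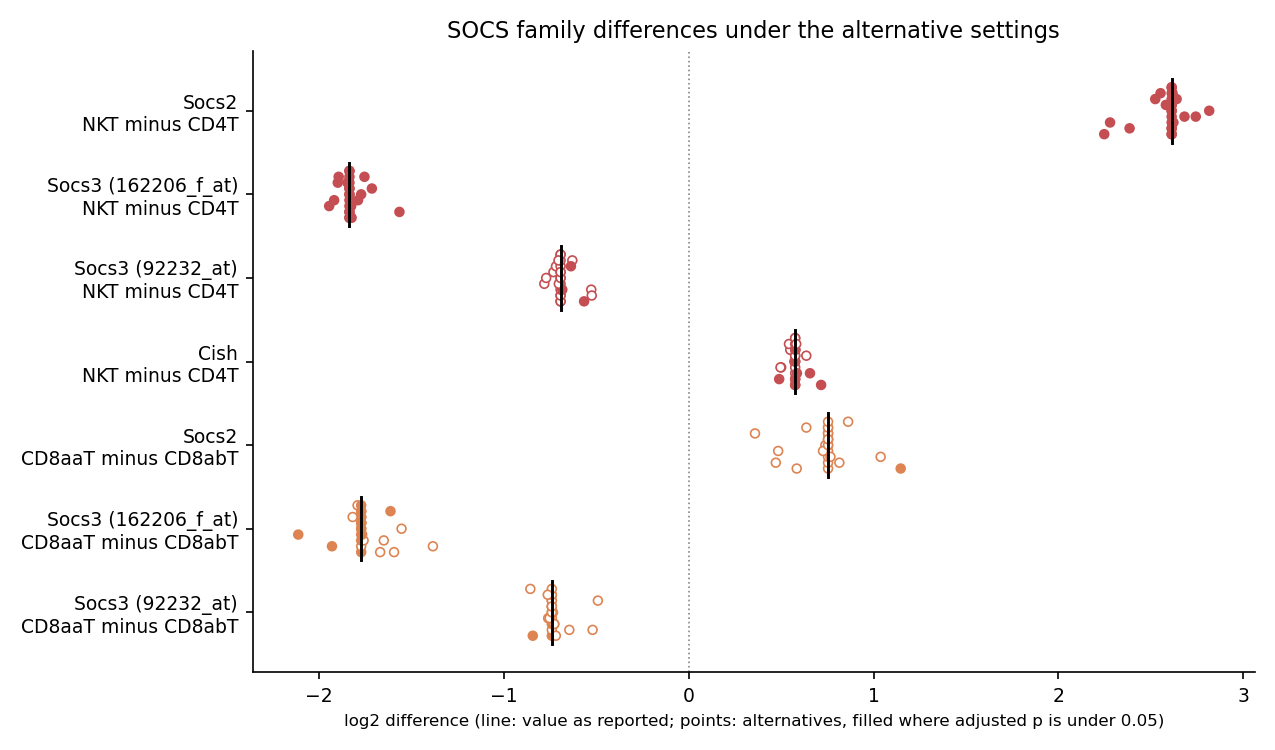
The black line is the log2 difference as reported and each point its value under 1 of 26 alternatives, filled where the adjusted p was under 0.05. Socs2 (2.25 to 2.82) and 162206_f_at of Socs3 (-1.94 to -1.56) stayed called throughout in NKT cells. The calls of Cish in NKT cells and of Socs3 in CD8aaT cells came and went around a steady difference.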

How the data were processed

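Gene expression was measured on 16 single-colour arrays. The deposited intensities are linear, 1 per probe set and array, and were made by the authors with RMA, per the submitters' processing notes. The sources used here give neither its version nor which arrays shared a normalization. RMA compresses differences of dim probe sets. Tests left out 66 controls. The platform annotation gave 10833 probe sets 1 gene symbol each, 396 several and 1193 none, and 10817 matched RefSeq by Entrez number.

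Log2 values were fitted with limma 3.58.1 in R 4.3.3 (lmFit, eBayes, 6 group means over 16 arrays, two-sided), checked on simulated data. The alternatives were a replicate block, the 2 groups' arrays alone, arrays left out, an offset of 32, median centring, quantile normalization, a filter on the dim quartile, another variance model and covariates for RNA length. Same-numbered arrays deviated from their group means together (r of 0.65 to 0.76 in NKT and CD4T, 0.60 to 0.66 in CD8aaT and CD8abT), so numbers were taken to pair these arrays, from the data and not a label. In NKT and CD4T, numbers 2 and 3 also correlated with each other (0.57 and 0.67). There the data set number 1 apart but do not settle the pairing of numbers 2 and 3. B1 and B2 have too few pairs to judge. The block fit nonetheless blocked all 3 pairs by number. Its spread per probe set is shared over all groups, so blocked values of the NKT and CD8aaT pairs rest on that step too. NKT replicates 2 and 3 were very close (SD of their log2 difference 0.126, as against 0.383 and 0.384 for pairs with replicate 1), as were CD4T's (0.162), and whether they are independent is not known.

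The members and lists were chosen with earlier results of these data known. Named were all member probe sets, up to 4 called genes per list and pair, genes called only with the block or short of the test where they bear on a member (chosen after their values were seen), and the 3 genes most like each member. Receptors called only with the block in NKT or CD8aaT cells were named as well. One list of induced genes is not reported here.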

Additional observations from a re-analysis of the deposited data

Results flagged for a closer look

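Socs2 and Socs3, the latter on 162206_f_at only, are set apart. Their innate-like minus adaptive differences were themselves different between pairs, by a test of that difference. For Socs2 the NKT minus CD4T difference exceeded the B1 minus B2 difference by 2.21 (adjusted p = 0.0225). This call was lost without NKT replicate 2 or 3, or without any 1 array of B1 or B2, with values of 2.09 to 2.34 and an adjusted p of 0.0523 to 0.131. For Socs3 on 162206_f_at the NKT minus CD4T difference lay below the B1 minus B2 difference by -2.55 (adjusted p = 0.00842), and without B2 replicate 1 or B1 replicate 2 the values were -2.41 and -2.13 (adjusted p = 0.0581 and 0.067). The CD8aaT minus CD8abT difference of the same probe set lay below the B1 minus B2 difference by -2.49 (adjusted p = 0.0195), and the call was lost without CD8abT replicate 2, B2 replicate 1 or 2 or B1 replicate 2 (-2.06 to -2.62, adjusted p = 0.0526 to 0.133). The other Socs3 probe set did not share the higher B1 value (-0.01 ± 0.20 in B1 minus B2). Nor was it called in these contrasts with the B cell pair, at -0.68 (adjusted p = 0.491) for NKT and -0.73 (adjusted p = 0.685) for CD8aaT.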

How the results depend on the processing

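Socs2 higher and Socs3 on 162206_f_at lower in NKT cells kept their direction and their call under all 26 alternatives (Socs2 2.25 to 2.82, Socs3 -1.94 to -1.56). The number of member probe sets called in NKT cells lay between 2 and 4. In CD8aaT cells it was 1, became 2 with the replicate block (both Socs3 probe sets), and also with number 1 of all groups left out, where Socs2 and 92232_at were called and 162206_f_at was not, was 0 with the arrays of these groups alone, an offset of 32, median centring or the beta-actin covariate, and ranged from 0 to 2 with 1 array left out. In B1 cells it was 0. With the replicate block it was 1, as Socs3 on 162206_f_at was called higher (adjusted p = 0.0429, where 2.84% of all probe sets were called). The block fit blocked B1 and B2 by number as well, though these arrays are too few to judge whether numbers pair them. For the NKT against the B cell difference the number of member probe sets called was 2, 1 with number 1 left out everywhere, and 0 to 2 with 1 array left out. For the CD8aaT against the B cell difference it was 1, 0 with number 1 left out everywhere or with the beta-actin covariate, and 0 to 1 with 1 array left out. For the NKT against the CD8aaT difference it was 0 and became 1, Socs2, with the replicate block, an offset of 32, quantile normalization or either RNA-length covariate, and lay between 0 and 1 with 1 array left out.

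Signs turned for differences near 0. Socs1 in B1 cells ran from -0.22 to 0.14 with 1 array left out and was 0.0097 with median centring and 0.0018 with quantile normalization. Socs1 in CD8aaT cells ran from -0.15 to 0.18, and was -0.15 with number 1 left out everywhere. Socs3 on 92232_at in B1 cells ran from -0.22 to 0.20, and was 0.11 with number 1 left out everywhere, 0.041 with median centring and 0.035 with quantile normalization. The Socs3 difference between the NKT and CD8aaT pairs on 162206_f_at ran from -0.28 to 0.28. Over all probe sets, calls went from 202 to 601 in NKT, 23 to 398 in CD8aaT and 142 to 353 in B1 cells with the replicate block. The fits of the arrays of 2 groups alone give no value for differences between pairs. The cause of these changes was not tested.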
